A study of Rattus norvegicus with 18 samples.

Results

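Schwann cells are the glia of peripheral nerves, and rat Schwann cells in primary culture are a standard source of DNA for work on myelination. The baseline distribution of 5-hydroxymethylcytosine (5hmC), without vitamin C, was taken from 6 of the 18 libraries of the series, all from control cultures of primary rat Schwann cells taken at passage 3. In 3 of them genomic DNA was precipitated with an antibody to 5hmC (hMeDIP), and the other 3 are genomic DNA sequenced without precipitation (input). Control cultures had no vitamin C treatment, and the labels give no strain, age or sex of the animals. Nor do they say whether the numbered samples came from separate cultures or animals, so every p-value below rests on a spread between samples that may be technical. All 215951 merged peaks of the deposited list were described, covering 176.7 Mb, with a median width of 639 bp and a range from 256 to 18485 bp. It is a single list for the whole series, vitamin C samples included. The number, place and width of peaks, the cover of genes by them and the lack of a peak are therefore traits of that list. They may not be those of the control libraries alone. No peak was left out by the filter of 10 reads summed over the 6 libraries.

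In mammalian DNA, 5hmC is made from 5-methylcytosine by the TET dioxygenases, which need iron, 2-oxoglutarate and, for full activity, ascorbate. It is an intermediate of active demethylation and also a lasting mark in slowly dividing cells. In many tissues it is found over gene bodies and around enhancers and is sparse at the starts of genes whose promoters are dense in CG dinucleotides. Immunoprecipitation reports how many 5hmC-bearing fragments a region gives, not the share of its cytosines that carry the mark, and regions rich in CG can give more.

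The contrast that the promoter results turn on is shown by sequences. For peaks within 250 bp of a transcription start, the 250 bases upstream of the start are printed for some matched protein-coding genes. These are 3 genes at the high end and 3 at the low end of enrichment, chosen after their values were seen. All of their peaks were called higher in hMeDIP than in input (edgeR adjusted p below 0.05). Start peaks that were not called, some of them lower, are not shown. The sequences are from RefSeq on the GRCr8 assembly, read 5′ to 3′ along the gene, and capitals mark each CG dinucleotide. The first 3 are from the high end and the last 3 from the low end.
Runx1 (chr11:45421326-45421575, minus strand): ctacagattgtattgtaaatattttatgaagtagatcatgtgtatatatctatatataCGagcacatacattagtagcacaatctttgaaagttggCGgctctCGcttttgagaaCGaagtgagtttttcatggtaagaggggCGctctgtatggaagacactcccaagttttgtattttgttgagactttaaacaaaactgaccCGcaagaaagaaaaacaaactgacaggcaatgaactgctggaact
Ncf1 (chr12:28121635-28121884, plus strand): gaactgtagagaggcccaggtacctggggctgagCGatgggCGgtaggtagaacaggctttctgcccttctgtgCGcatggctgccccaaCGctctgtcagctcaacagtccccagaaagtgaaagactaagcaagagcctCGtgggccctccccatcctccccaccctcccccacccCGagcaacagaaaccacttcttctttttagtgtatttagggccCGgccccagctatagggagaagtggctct
Tiam2 (chr1:46400615-46400864, plus strand): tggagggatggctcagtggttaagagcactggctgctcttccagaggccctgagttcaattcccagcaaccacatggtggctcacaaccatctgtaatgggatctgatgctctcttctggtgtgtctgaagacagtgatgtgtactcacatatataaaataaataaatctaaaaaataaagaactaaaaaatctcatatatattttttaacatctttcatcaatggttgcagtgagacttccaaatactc
Ctdsp2 (chr7:64690487-64690736, plus strand): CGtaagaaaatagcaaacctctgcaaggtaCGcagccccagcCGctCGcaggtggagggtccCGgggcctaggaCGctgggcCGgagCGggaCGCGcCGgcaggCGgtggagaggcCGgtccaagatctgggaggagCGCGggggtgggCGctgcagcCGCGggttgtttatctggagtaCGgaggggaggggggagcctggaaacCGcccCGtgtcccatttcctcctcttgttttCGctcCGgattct
Epn2 (chr10:46759093-46759342, minus strand): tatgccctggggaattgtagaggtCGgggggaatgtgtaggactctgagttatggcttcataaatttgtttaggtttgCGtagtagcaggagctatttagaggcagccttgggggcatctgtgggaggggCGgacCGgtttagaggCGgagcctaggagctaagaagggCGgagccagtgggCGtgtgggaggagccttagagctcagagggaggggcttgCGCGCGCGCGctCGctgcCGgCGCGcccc
Pak1 (chr1:161522200-161522449, plus strand): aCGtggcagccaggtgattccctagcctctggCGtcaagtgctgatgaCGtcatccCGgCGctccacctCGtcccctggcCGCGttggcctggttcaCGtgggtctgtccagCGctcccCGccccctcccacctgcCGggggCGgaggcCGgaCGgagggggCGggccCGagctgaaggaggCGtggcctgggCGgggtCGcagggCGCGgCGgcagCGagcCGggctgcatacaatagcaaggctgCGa
In the Runx1 window there were 6 CG dinucleotides, in Ncf1 7 and in Tiam2 0. The windows of Ctdsp2, Epn2 and Pak1 held 23, 16 and 26. The peak positions given below are on the peak list's own build, which no source used here names, so the GRCr8 windows stand beside the peaks by gene and not by coordinate.

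The control RNA libraries carried the markers of the labelled cell type. Of 9 Schwann cell markers, 8 could be matched by symbol and all 8 were above 10 counts per 1000000 reads assigned to genes (CPM) in the control RNA libraries, with a summed level of 11135 to 11358 CPM. Sox10, the glial lineage factor, stood at 615 ± 12.4 CPM (SD, n = 3). Macrophage markers summed to 1.24 to 1.60 CPM and endothelial markers to 1.41 to 1.86 CPM. Of the 6 fibroblast markers 5 were matched; Col1a1 alone gave 4575 ± 99.6 CPM (SD, n = 3), while Dcn and Thy1 were at 0 and Pdgfra was at 2.44 ± 0.230 CPM. Mural markers summed to 63.2 to 65.8 CPM, perineurial markers to 145 to 149 CPM and neuronal markers to 23.4 to 26.0 CPM, the last nearly all from Tubb3, with Rbfox3 at 0.

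The peaks held far more of the precipitated DNA than of the input. The hMeDIP libraries had 86086627, 77868883 and 92722840 counted reads, and 31.7%, 30.8% and 35.7% of them fell in peaks. Input libraries had 100915341, 83233328 and 111336681 counted reads, with 8.49%, 8.65% and 8.55% in peaks. The groups did not overlap. The mean shares were 32.8% ± 2.61 (SD, n = 3) and 8.57% ± 0.081 (SD, n = 3), a ratio of 3.82 ± 0.305 (two-sided exact permutation test, p = 0.1, the smallest that 3 against 3 can give). Over the summed length of the peaks this was 1.85 ± 0.148 CPM per kb in hMeDIP and 0.485 ± 0.0046 CPM per kb in input. hMeDIP replicate 3 had the largest share of its reads in peaks, and its enrichment was the highest of the 3 in every region class. A chi-square of the read counts over peaks was 0.963 per degree of freedom between hMeDIP replicates 1 and 3 and 0.982 to 0.988 between input libraries, so within peaks these pairs differed by no more than sampling noise. Their shares of reads in peaks did differ, and they were kept as 3 samples each.

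Enrichment at a single peak is given as the log2 ratio of hMeDIP to input, each as counts per 1000000 (CPM) of all counted reads of the library, those outside peaks included. With edgeR's quasi-likelihood test over all 215951 peaks, 212655 were higher in hMeDIP at a Benjamini-Hochberg adjusted p below 0.05, which is 98.5% of those tested. At least a 2-fold difference was reached by 192467 of these, 89.1% of those tested. The median log2 enrichment was 1.84, with quartiles of 1.37 and 2.21. Strong peaks were few. At least 4-fold enrichment was estimated at 83498 peaks (38.7%), at least 8-fold at 3759 (1.74%) and at least 10-fold at 886 (0.410%). All 3 hMeDIP values lay above all 3 input values at 211204 peaks (97.8%). Because no source used here says which libraries the peaks were called on, these counts describe the list and are no separate evidence that its peaks carry 5hmC. The scale decides the count: with reads in peaks as the library size, 43443 peaks were higher and 71243 lower, and with TMM factors 56120 and 59149, since both set the median peak near 0 (a log2 of -0.10 and 0.01). DESeq2 with its own size factors, which does the same, called 41076 higher and 44013 lower.

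At the same threshold 2 peaks were called lower in hMeDIP than in input, both in gene bodies. In Agap1, which encodes a GTPase-activating protein of the Arf family, the peak at chr9:96816264-96817065 had 0.267, 0.257 and 0.280 CPM in hMeDIP against 0.386, 0.481 and 0.314 CPM in input. The ranges did not overlap, and the log2 enrichment was -0.52 (SE 0.23, edgeR adjusted p = 0.025). In Fem1c, a substrate receptor of a ubiquitin ligase, the peak at chr18:40513585-40514174 had 0.221, 0.205 and 0.302 CPM against 0.287, 0.433 and 0.368 CPM, ranges that overlapped, with a log2 of -0.55 (SE 0.24, edgeR adjusted p = 0.024). Both had little coverage. DESeq2 on all counted reads called neither lower, and the Agap1 call was lost without hMeDIP replicate 1 (edgeR adjusted p = 0.055) and without input replicate 2 (adjusted p = 0.159).

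The peak list runs through the genome from start to end and then does so once more, so that it holds 2 passes, here called sets. No source used here says what sets them apart. The first 68431 peaks (31.7%) had a median width of 507 bp, a pooled enrichment of 4.68-fold ± 0.223 (SD, n = 3) and a lowest log2 of 0.77. The other 147520 had a median width of 715 bp, a pooled enrichment of 3.502-fold ± 0.340 (SD, n = 3) and a lowest log2 of -0.57. At least 2-fold enrichment was reached by 99.99% of the first set and 84.1% of the second. Pooled enrichment is the hMeDIP reads of a set of peaks over its mean input reads, computed for each hMeDIP library, and the first set was higher by 0.42 ± 0.079 on the log2 scale (SD, n = 3). Intergenic peaks made up 58.0% of the first set and 43.2% of the second, gene body peaks 32.3% and 47.3%, and gene desert peaks 3.06% and 0.76%. Since the sets differ in enrichment, width and place, results by region class and width are given for both, and those around transcription starts over all peaks only.

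Most 5hmC peaks lay in gene bodies or between genes, and the enrichment differed little with place. The list gives 6 region classes. Of the peaks, 103414 (47.9%) were in other intergenic DNA, 91886 (42.5%) in gene bodies more than 3000 bp from the start, 11549 (5.35%) at 1001 to 3000 bp from a start, 4583 (2.12%) at 251 to 1000 bp, 1312 (0.61%) within 250 bp and 3207 (1.49%) in gene deserts. Pooled enrichment was 4.03-fold ± 0.177 in gene deserts, 3.97-fold ± 0.295 in other intergenic DNA and 3.72-fold ± 0.322 in gene bodies (SD, n = 3 for each). At promoters it was 3.56-fold ± 0.283 at 1001 to 3000 bp, 3.61-fold ± 0.276 at 251 to 1000 bp and 3.61-fold ± 0.343 within 250 bp. The classes lay within a narrow range, and the spread between the 3 libraries was as large as most gaps between classes. Libraries kept the order between the 2 largest classes: intergenic DNA was above gene bodies by 0.09, 0.12 and 0.08 on the log2 scale in the 3 hMeDIP libraries.

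**Figure D1:**
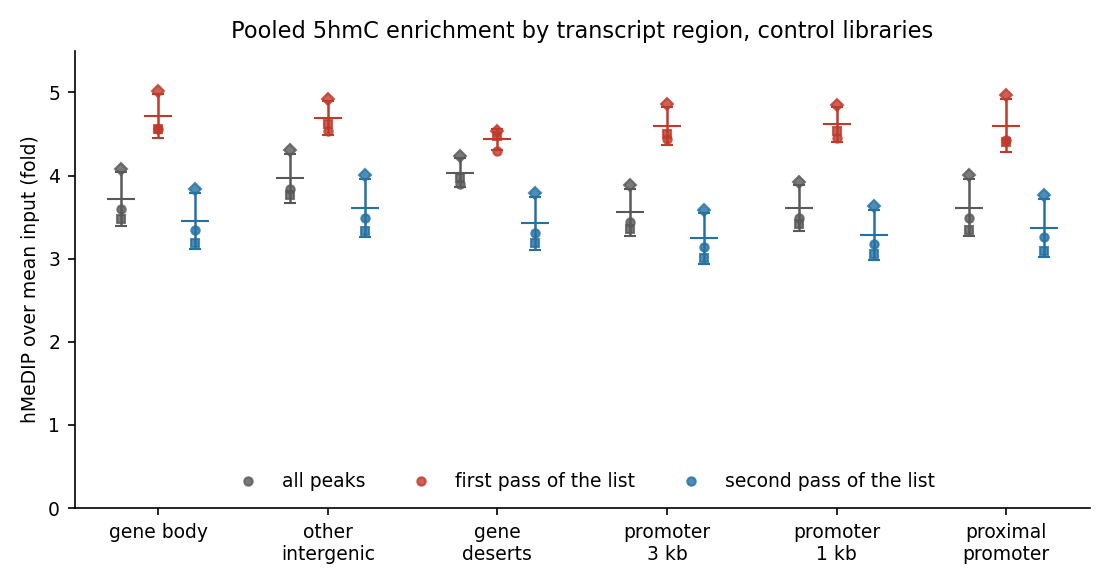
Pooled enrichment of hMeDIP over mean input (fold, vertical axis) in the 6 region classes, for all peaks (grey) and for the first (red) and second (blue) pass of the list; circles, squares and diamonds are hMeDIP replicates 1, 2 and 3, and lines and bars their mean and SD. The first set lay higher in every class, with means from 4.44 to 4.71-fold against 3.24 to 3.61-fold in the second.

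Read shares gave the same order. Of the reads in peaks, gene bodies held 43.9% ± 0.333 in hMeDIP and 45.2% ± 0.090 in input (SD, n = 3), and intergenic DNA held 47.1% ± 0.285 and 45.4% ± 0.096. Gene deserts held 1.15% ± 0.047 against 1.09% ± 0.013. The 3 promoter classes together held a smaller share of hMeDIP than of input reads, for example 5.21% against 5.60% at 1001 to 3000 bp. In each of the 6 classes the groups did not overlap (two-sided exact permutation tests, p = 0.1 each and 0.1 after Benjamini-Hochberg adjustment over the 6, where 0.1 is the smallest possible). The place of gene deserts turned within the sets. Gene deserts minus gene bodies was 0.12 ± 0.070 on the log2 scale over all peaks, -0.087 ± 0.061 in the first set, where all 3 libraries were negative, and -0.012 ± 0.012 in the second. Their share of reads was then lower in hMeDIP than in input, 2.29% ± 0.072 against 2.41% ± 0.029 in the first set and 0.583% ± 0.0040 against 0.596% ± 0.0037 in the second (SD, n = 3), with no overlap in either (two-sided exact permutation tests, p = 0.1, the smallest possible). Within the first set the difference between gene bodies and intergenic DNA was gone: pooled enrichment was 4.71-fold and 4.69-fold, and the log2 difference was -0.01 ± 0.024. Within the second set it was 3.46-fold against 3.61-fold, a log2 difference of 0.06 ± 0.003.

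Wider peaks were more enriched in the second set and not clearly so in the first. Over all peaks, the pooled enrichment rose from 3.52-fold ± 0.168 in 69613 peaks under 500 bp, through 3.79-fold in 94846 peaks from 500 to under 1000 bp, to 4.15-fold ± 0.408 in 278 peaks of 5000 bp or more. Peaks of at least 2000 bp exceeded those under 500 bp by 0.21 ± 0.078 on the log2 scale (SD, n = 3). In the second set this difference was 0.60 ± 0.007, from 2.64-fold under 500 bp to 4.10-fold at 5000 bp or more. In the first set it was 0.07 ± 0.109, with values of 0.08, -0.04 and 0.18 in the 3 hMeDIP libraries. The numerator and denominator moved differently. The hMeDIP level of the second set rose from 1.33 to 1.86 CPM per kb between those width classes and that of the first fell from 2.52 to 1.998 CPM per kb. The input level fell in both, from 0.570 to 0.442 CPM per kb in the first set and from 0.503 to 0.453 CPM per kb in the second.

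**Figure D2:**
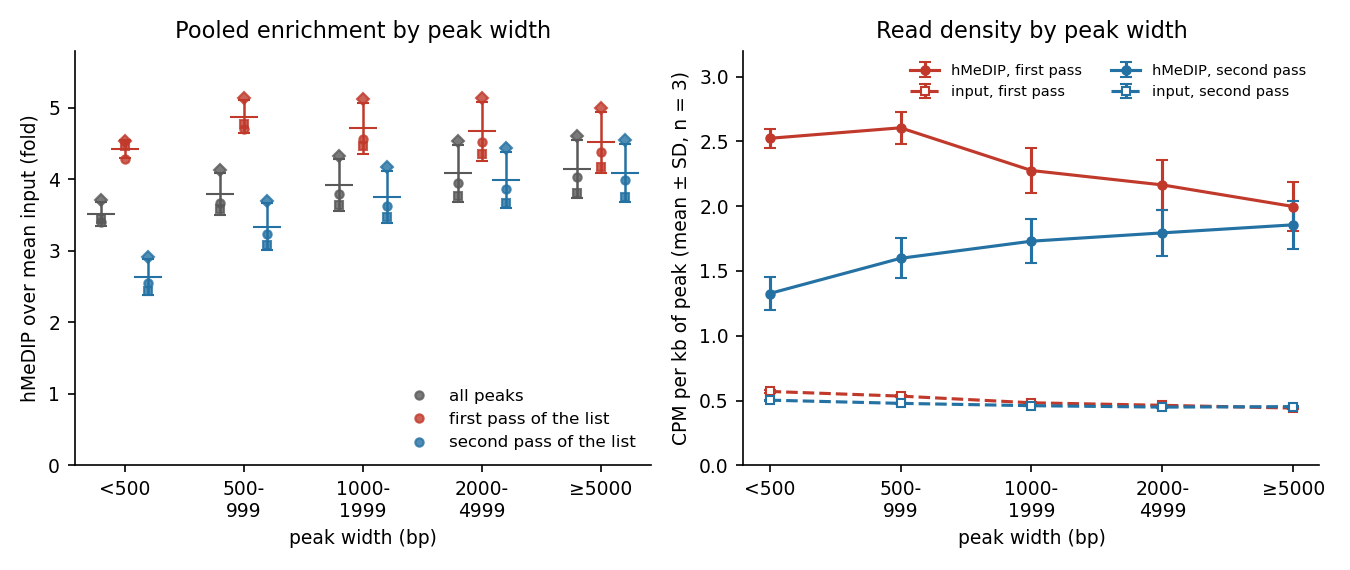
Left, pooled enrichment of hMeDIP over mean input (fold) in 5 classes of peak width (bp), with circles, squares and diamonds for hMeDIP replicates 1, 2 and 3 and lines and bars for their mean and SD; right, reads per kb of peak (CPM per kb, mean ± SD, n = 3) in hMeDIP and input for the first (red) and second (blue) set. The second set climbed from 2.64 to 4.10-fold while the first stayed between 4.43 and 4.88-fold, and the hMeDIP densities of the sets drew together as width grew.

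The 5 widest peaks with a named gene lay in gene bodies, as did 205 of all 278 peaks of 5000 bp or more. The widest in the list, 18485 bp, was in Socs5, a suppressor of cytokine signalling, at chr6:10678529-10697014. It had 37.0, 35.1 and 44.7 CPM in hMeDIP and 7.99, 7.82 and 7.86 CPM in input, with a log2 enrichment of 2.30 (SE 0.12). The groups were far apart, with enrichment above the median peak. Next were peaks of 13054 bp in Zeb2, a transcription factor that Schwann cells need to differentiate (log2 1.93), 12795 bp in the focal adhesion gene Pxn (2.30), 12612 bp in the sorting gene Vps37b (2.73) and 12501 bp in the adaptor gene Sh3pxd2b (2.23).

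Around transcription starts the peaks thinned and their enrichment was lowest just downstream. Peaks numbered 3404 per kb of distance at 1000 to 500 bp upstream, 2774 in the 500 bp upstream, 2600 in the first 500 bp downstream and 3081 at 1000 to 2000 bp downstream. The count then fell with distance to 361 per kb at 50 to 100 kb. It was not divided by the number of genes long enough to reach that far, so it is no density per gene. The median span of protein-coding genes with a peak was 27.6 kb. Enrichment was 3.81-fold at 3000 to 2000 bp upstream, 3.35-fold at 1000 to 2000 bp downstream and 3.77-fold beyond 100 kb. The dip in number at the start was shallow, and enrichment at the start itself was not the lowest of the profile. The mix of sets shifted along the same axis. In the 250-bp bin starting 3000 bp upstream, 220 of 674 peaks came from the first set, and the median log2 was 1.84. In the bin starting 1750 bp downstream it was 160 of 792, with a median log2 of 1.58. The part of this mix in the lower enrichment downstream was not tested.

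**Figure D3:**
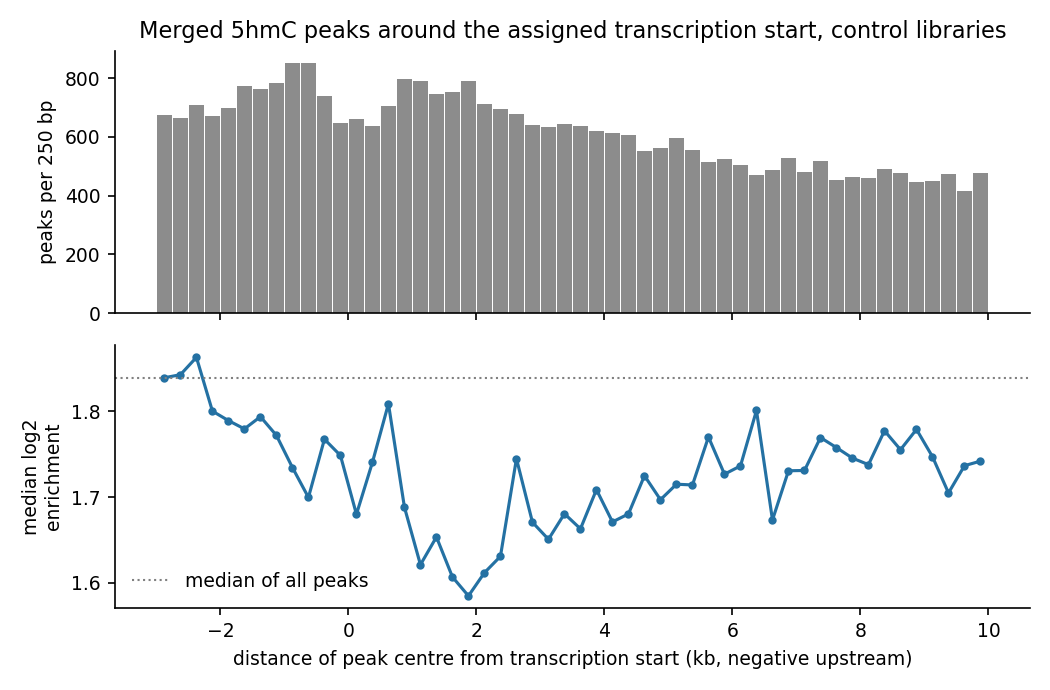
Number of peaks per 250-bp bin (top) and their median log2 enrichment (bottom, axis not starting at 0; the dotted line is the median of all peaks, 1.84) against distance from the transcription start assigned in the list (kb, negative upstream). The number dips around the start between 2 shoulders, and the median enrichment is lowest between 1000 and 2500 bp downstream.

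Peaks at starts were weaker where the promoter held more CG. Of 1210 genes with a peak within 250 bp of the start, 573 matched a RefSeq promoter on symbol, out of 17179 promoters with 1 sequence per gene. The letters CG were counted on the 250 bases before the start, where both strands give the same count and matches cannot overlap. The share of promoters with at least 1 CG was 93.9% over all and 98.3% among those with a peak at the start. The median number was 11 over all, 9 with a peak at the start, 15 for genes whose peaks lay elsewhere in the gene or promoter and 5 for genes with no peak. Promoters with 2 or fewer CG had a peak at the start in 1.85%, those with 6 to 9 in 5.38% and those with 20 or more in 2.86%. The median log2 enrichment of those peaks, both sets of the list together, fell from 1.79 in the first class through 1.65 to 1.35 in the last. All peaks within 250 bp of a start had a median log2 of 2.13 in the first set and 1.54 in the second. The part of set and width in the fall with CG was not tested. Counting every peak within 3000 bp of the start, the share rose with CG instead, from 16.9% to 45.7%. A CG count describes the sequence and says nothing of which cytosines were modified.

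The genes whose sequences are printed above include high and low start peaks. Runx1, a transcription factor of blood and sensory neuron development, had a peak 219 bp downstream of its start at chr11:33001667-33003937 with 9.11, 9.19 and 9.95 CPM in hMeDIP and 0.892, 1.201 and 0.862 CPM in input. Its log2 enrichment of 3.27 (SE 0.13) was the highest of the matched start peaks. Ncf1, a subunit of the phagocyte NADPH oxidase, reached 3.15 (SE 0.14) and the Rac exchange factor Tiam2 3.13 (SE 0.14), whose window holds no CG. At the other end, the peak of the phosphatase gene Ctdsp2 had 0.453, 0.462 and 0.475 CPM in hMeDIP and 0.307, 0.324 and 0.386 CPM in input. Groups did not overlap there either, but the log2 was 0.44 (SE 0.21). Over all peaks within 250 bp of a start the lowest log2 was -0.19, at a peak not called. The endocytic adaptor Epn2 had 0.46 (SE 0.23) and the kinase gene Pak1 0.52 (SE 0.22), which lies in a block of chromosome 1 with raised input that is described further on.

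Single peaks were ranked among the 85296 that were called and had a named gene. These also had a mean of at least 20 input reads per library and groups that did not overlap. Unnamed and thinly covered peaks, some of them higher, were not ranked. Peaks that were not called, some of them lower, were left out too, so the low end of the ranking depends on the call. The 10 highest of the ranked peaks were all in gene bodies, as were 91886 of the 109330 peaks that have a gene. First was a peak in the adhesion receptor gene Adgra3 at chr14:64760685-64761718, with 5.98, 5.60 and 6.84 CPM in hMeDIP against 0.396, 0.457 and 0.278 CPM in input. The difference was 16.5-fold (log2 4.05, SE 0.15). It was followed by peaks in Spg21 (4.02), Lmf1 (3.96), Paox (3.94), Kif26b (3.89), Gnao1 (3.89), Mitf (3.86), Brap (3.85), Unk (3.85) and Gch1. Mitf is the melanocyte lineage factor, Gnao1 a G protein subunit of neurons and Gch1 the first enzyme of tetrahydrobiopterin synthesis. At the bottom, after Agap1, stood peaks in Zfp536, Vps26b, Zfat, Zeb2, Akap13, Med13l, Col5a1, Asb7 and Hsf4, with log2 values from 0.34 to 0.36. Several of these calls were lost when a library was left out. All 10 of these low peaks belong to the second set of the list. Zeb2 holds both one of the widest, well enriched peaks and one of the lowest ranked, so genes were not uniform along their length.

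Summed over each gene's body and promoter peaks, 16140 gene symbols could be tested. Of these, 16063 were higher in hMeDIP (99.5%, edgeR adjusted p below 0.05), 15430 of them at least 2-fold (95.6% of those tested), and 0 were lower. The count at an unadjusted p below 0.05 was also 16063, and no gene was lower with any replicate left out. The median log2 enrichment was 1.87. Peaks were spread unevenly: 4830 genes (29.9%) had 1 peak, while the 1254 genes with 20 or more (7.77%) held 44.6% of all peaks in genes. Among protein-coding genes, the median share of the gene's span lying in peaks was 29.5% for spans under 10 kb and 4.39% for spans of 300 kb or more.

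The most 5hmC reads above input lay in long genes. Rbms3, an RNA-binding protein gene of 984 kb, had 266 peaks with 489, 474 and 555 CPM in hMeDIP and 141, 141 and 138 CPM in input (log2 1.85, SE 0.10). In Nav2, which acts in axon outgrowth, 114 peaks covered 64.7% of 365 kb and gave 484, 449 and 537 CPM against 139, 138 and 135 CPM (1.83, SE 0.10). Their ratios were ordinary and their totals came from the length covered. Cdh13, Ptprm, Kalrn, Prkca, Msi2, Sorcs2, Aff3, Cdk14 and Gpc6 followed, with log2 values from 1.87 to 2.02.

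By ratio, among 4389 genes with at least 5 peaks and 200 input reads, the top was Apoo, a component of the mitochondrial MICOS complex on the X chromosome. Its 15 peaks had 166, 171 and 171 CPM in hMeDIP and 19.2, 21.0 and 20.2 CPM in input, a difference of 8.42-fold (log2 3.07, SE 0.10). All 15 lay within 53.4 kb, each with a log2 between 2.47 and 3.503, while the 46 peaks in the 1 Mb to either side had a median of 1.87. Input over the Apoo peaks was 1.43 times that of peaks of like width, a level whose part in the result was not tested. After it came Nup188 of the nuclear pore (2.76), the small GTPase Rab20 (2.70), Gch1 (2.69), Klhl30 (2.62), the Notch glycosyltransferase Mfng (2.61), Hacd1 (2.59) and Syt13 (2.58). The lowest were Sec11a of the signal peptidase (0.76), the Golgi GTPase Rab6a (0.76), Hmgcs1 of sterol synthesis (0.78), Akirin2 (0.94), Picalm (0.96), Ddx59 (0.96), Rnf2 (0.99) and Fanci (0.998). Of these 8, 4 lie in a block of chromosome 1 that had more input DNA, against 4.67% of the 4389 genes.

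That block ran from 60 to 170 Mb of chromosome 1. In all 22 of its 5-Mb windows the input level, relative to all peaks of like width, was above 1.15 in each of the 3 input libraries. Of the 567 windows no other that held at least 20 peaks did this. The median input was 1.33 times that of all peaks of like width in all 3, against 1.0 over the rest of chromosome 1. For hMeDIP it was 1.2, 1.21 and 1.18 times. Enrichment of its 8548 peaks was lower, 3.44-fold ± 0.236 against 3.8-fold ± 0.307 for the rest of the chromosome, and why the block had more input was not tested. Of the 10 lowest ranked single peaks 3 lay in it, those of Zfp536, Akap13 and Asb7, against 3.96% of all peaks. None of the 10 highest ranked did. Nav2 also lies in the block.

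**Figure D4:**
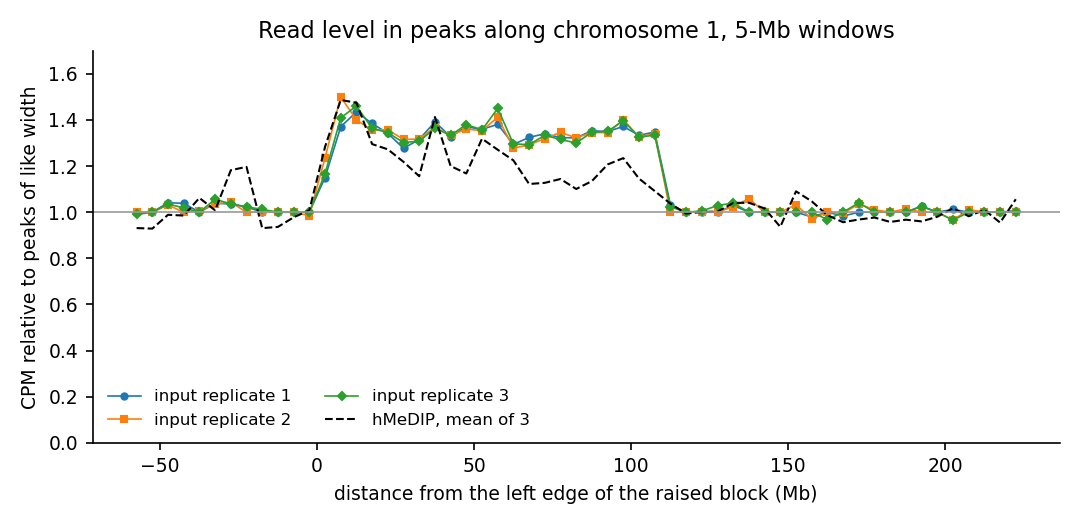
Level of reads in peaks relative to all peaks of like width (vertical axis, where 1 is the median of those peaks) in 5-Mb windows along chromosome 1, against distance in Mb from the left edge of the raised block, for the 3 input libraries (solid lines) and the mean of the 3 hMeDIP libraries (dashed). All 3 input libraries stand near 1.33 over the 110 Mb of the block and near 1.0 elsewhere.

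The X chromosome had few peaks. It held 2835, or 17.8 per Mb, against 68.1 to 109 per Mb on the 20 autosomes. The X peaks had a median width of 453 bp and a pooled enrichment of 4.18-fold ± 0.157, above the range over autosomes of 3.65-fold to 4.05-fold. Within the first set of the list X minus autosomes was -0.02 ± 0.049 on the log2 scale, and within the second -0.07 ± 0.016, so peaks of the same set were not more enriched on X. No peak lay on Y or on mitochondrial DNA.

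Genes of Schwann cell identity were covered by listed peaks over much of their length, at ordinary enrichment in the control libraries. Of 12 members of this list, 11 had a peak and all 11 were higher than input by at least 2-fold (95.6% over all genes tested), with a median log2 of 1.87, the same as over all genes. Their peaks covered a median 38.6% of the gene's span against 13.5% over all genes, where spans are alike in length (21.0 and 21.2 kb). Such cover was not particular to this list. It was 34.1% in the immature and repair genes, 28.9% in basal lamina and matrix genes and 28.6% in promyelinating genes. Housekeeping genes had 26.0% and the short Hox genes 49.2%. The neurotrophin receptor gene Ngfr had 38.4, 37.6 and 46.4 CPM against 8.78, 9.88 and 10.1 CPM (2.09, SE 0.09), and its peaks added up to 121% of its span because promoter peaks outside the span count too. In Erbb3, the neuregulin receptor, 10 peaks had 27.1, 25.3 and 30.8 CPM against 6.65, 7.04 and 7.10 CPM (2.003, SE 0.09) over 75.8% of the span. S100b, a calcium-binding protein that marks the lineage, had 18.2, 18.1 and 20.9 CPM against 4.61, 4.72 and 4.73 CPM (2.02, SE 0.10) over 91.2%. Sox10 was the least enriched of the list: 4.57, 5.32 and 5.33 CPM against 2.05, 1.90 and 1.63 CPM, a log2 of 1.45 (SE 0.11). For Foxd3, the remaining member, the list names no peak. Genes were joined by symbol, so here and in the lists that follow a gene without a peak cannot be told apart from one listed under another symbol.

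Myelin genes ranged in log2 enrichment from 1.38 to 2.26. Of 18 members 17 had a peak, all 17 at least 2-fold above input, near the 95.6% over all genes, with a median log2 of 1.89 and 23.6% of the span in peaks. Mbp, a structural protein of compact myelin, had 35 peaks with 75.2, 71.9 and 83.9 CPM in hMeDIP and 18.8, 20.004 and 18.996 CPM in input (1.9997, SE 0.09). Pmp22, whose dosage changes cause neuropathy, had 18 peaks over 57.3% of its span, with 29.5, 28.5 and 34.4 CPM against 7.94, 8.002 and 8.13 CPM (1.94, SE 0.09). In both genes every hMeDIP library of the untreated cells lay above every input library. Drp2 of the dystroglycan complex had 2.26, Ugt8 of galactolipid synthesis 1.51 and Mal 1.38. Gjb1, the connexin gene, had no peak.

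Regulators of the myelination programme ranged more widely. Of 18 promyelinating genes 17 had a peak, all 17 at least 2-fold (95.6% over all genes), with a median log2 of 1.64. Pou3f1, a transcription factor of the promyelinating stage, had 1 peak with 3.04, 3.16 and 3.49 CPM against 0.396, 0.348 and 0.467 CPM, the highest of the list at 2.98 (SE 0.14). Egr2, the transcription factor that drives myelin genes, had 3 peaks with 2.79, 2.30 and 2.74 CPM against 0.753, 0.889 and 0.763 CPM (1.71, SE 0.13). Nfatc4 was lowest at 1.14 (SE 0.11) and Rxrg next at 1.31 (SE 0.10). Of 17 genes of the immature and repair states 14 had a peak, 12 at least 2-fold, with a median of 1.74. Jun, the regulator of the repair state, had 3.18, 2.79 and 3.74 CPM against 0.822, 0.769 and 0.781 CPM (2.03, SE 0.13). The growth factor gene Artn was the lowest at 0.93 (SE 0.12). Sox2, Olig1 and Bdnf had no peak.

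The genes of the TET enzymes were enriched over input, as were 99.5% of all genes tested. Tet3 had 40 peaks over 52.8% of its span, with 71.0, 69.3 and 80.3 CPM in hMeDIP and 22.4, 21.9 and 22.4 CPM in input (log2 1.72, SE 0.09). Tet2 had 16 peaks over 12.7%, with 15.8, 16.2 and 18.2 CPM against 4.51, 5.21 and 4.65 CPM (1.81, SE 0.09). Tet1 had 6 peaks over 4.58%, with 5.12, 5.15 and 5.72 CPM against 1.41, 1.502 and 1.41 CPM (1.89, SE 0.11). Their ratios lay close together while the covered share differed. In the whole list of cytosine oxidation and methylation genes 13 of 18 had a peak, all 13 at least 2-fold (95.6% over all genes), with a median of 1.92. The highest was the damage-response gene Gadd45a (2.77, SE 0.18) and the lowest Idh2, a mitochondrial source of 2-oxoglutarate (1.17, SE 0.10), which lies in the chromosome 1 block. Basal lamina and matrix genes had a peak in 23 of 25, 22 at least 2-fold, with a median of 1.79, from Lamb2 (0.95) to Fn1 (2.12). Col1a1 had peaks over 97.9% of its span (1.98, SE 0.09).

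Genes of other cell types had list medians from 1.86 to 2.03, and the neuronal, liver and blood genes had less of their span in peaks than the 13.5% over all genes; no difference between lists was tested. Among neuronal genes 15 of 16 had a peak, with a median log2 of 1.94 and 8.08% of the span in peaks. For liver genes it was 11 of 14, a median of 2.03 and 6.81%, and for blood genes 9 of 13, 1.94 and 8.89%. Ttr, a plasma carrier protein made in liver, had 9.91, 9.50 and 12.1 CPM against 1.42, 1.68 and 1.79 CPM (2.69, SE 0.11), although its RNA was at 0.04 CPM. Snap25, a synaptic protein gene of 189 kb, had 2 peaks over 0.33% of it. Skeletal muscle genes had a peak in 6 of 14 (1.86, with 13.9% of the span in peaks), germline and pluripotency genes in 6 of 12 (1.98) and imprinted genes in 9 of 15 (1.82). Housekeeping genes had a peak in 9 of 16 and the lowest median of these lists, 1.36, with Sdha at 0.82 and Polr2a at 2.01. Against these, 12222 of 20950 RefSeq protein-coding symbols (58.3%) had a peak, with a median of 1.85. Every gene with a peak in these lists was higher than input, near the 99.5% over all genes, and members without a peak are in no median.

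**Figure D5:**
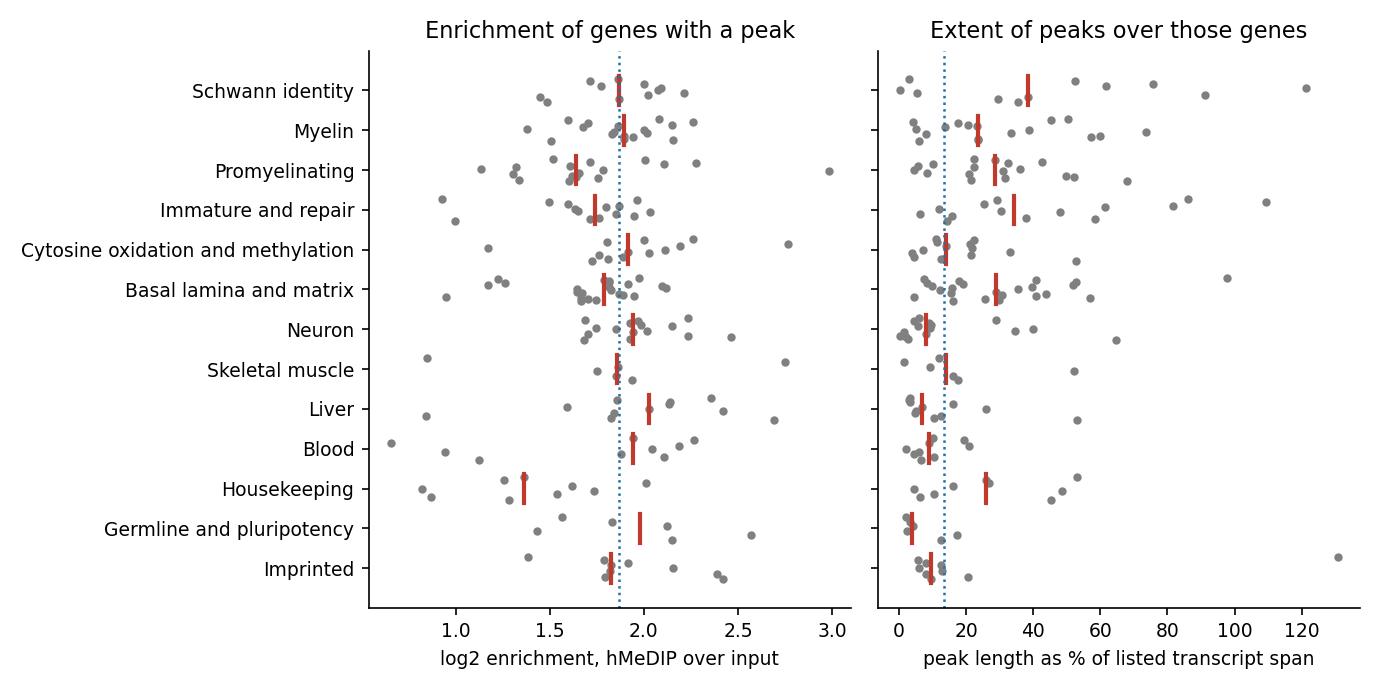
Log2 enrichment of hMeDIP over input (left) and peak length as a percentage of the listed transcript span (right) for the genes with a peak in 13 lists; each point is a gene, red bars are list medians and dotted lines the medians of all genes. Schwann identity genes match all genes in enrichment (both 1.87) and, like several other lists, lie above them in covered share (38.6% against 13.5%).

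Lists also differed in which set of the peak list they drew on. The first set gave 24.4% of peaks over all genes, 19.1% for Schwann identity, 6.90% for housekeeping, 34.0% for neuronal, 44.8% for liver and 45.7% for blood genes. The part of this in the list medians was not tested. Over all genes the same shift went with RNA level: genes under 0.1 CPM in the control RNA libraries had a median log2 of 1.999 with 9.43% of their span in peaks and 45.9% of their peaks from the first set. Those over 100 CPM had 1.72, 17.7% and 15.2%. Abundantly transcribed genes thus had more of their span in peaks and a lower ratio within peaks, as a description over genes that share the same 6 DNA libraries.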

How the data were processed

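Raw counts of reads per peak (hMeDIP, input) and per gene (RNA) were deposited by the authors, per the labels, with a peak list giving position, gene and region class. The submitters' processing notes list BWA, CASAVA 1.4, HTSeq, STAR and Trim Galore, with no roles. No source used here gives the genome build, annotation release, peak caller, merge rule or base convention. All 9 control sample files were identical to the series tables.

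Groups came from the labels, and peak members and gene lists were chosen with earlier results of these data known. Library size was all counted reads, including those assigned to no peak. Peaks with at least 10 reads summed over the 6 libraries were tested with edgeR 4.0.16 (R 4.3.3; glmQLFit, glmQLFTest, group as the only term), adjusted by Benjamini-Hochberg over all peaks (threshold 0.05). Genes were tested likewise on summed gene body and promoter peaks. DESeq2 1.42.0 was an alternative. Other values were computed in Python 3.11.15. In simulated counts for 20000 peaks of this comparison, 92% of changes of log2 1 and 20% of changes of log2 0.5 were recovered, with 0.03% false calls. Both assays were simulated from input levels with a fixed spread, and only 200 peaks were changed. In the real counts nearly all peaks differed, so these rates may not carry over. Reads carry no molecular identifiers in the deposited counts, so they are not independent molecules.

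Named peaks, among called peaks with a mean of 20 input reads and groups that do not overlap, were the 10 highest, 10 lowest and 5 widest. Named genes were the 12 with most reads above input, the 8 highest and 8 lowest with 5 peaks and 200 input reads, up to 4 highest and 2 lowest of each list, and 12 fixed genes. Some of these genes are not reported here. A pair of replicates was to be summed only if it agreed within sampling noise while both other pairs were clearly apart. Over peaks the chi-square per degree of freedom was 0.963 for hMeDIP replicates 1 and 3. For 1 and 2 it was 1.10 and for 2 and 3 it was 1.47. No pair met the rule, so all were kept apart, and hMeDIP replicates 1 and 3 were summed as an alternative. Vitamin C libraries were not used. Gene span is the range of the transcript positions in the peak list. The split of the list into 2 sets and the chromosome 1 block were noticed in the data, and the settings that use them were chosen after seeing the data. Other settings tried are in the closing section.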

Additional observations from a re-analysis of the deposited data

How the results depend on the processing

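Scaling was the choice that mattered most. With reads in peaks as library size 43443 peaks and 3432 genes were higher, with TMM factors 56120 peaks and with DESeq2's own size factors 41076 peaks, against 212655 peaks and 16063 genes; these settings lowered each named peak's log2 by up to 1.94, which puts 11 of the 25 named peaks and 59 named genes below 0 with reads in peaks, and 10 of the peaks with TMM, against 1 peak, in Agap1, with all counted reads; the shift is nearly the same for every peak. DESeq2 on all counted reads called 209434 peaks higher, and a minimum of 10 input reads 212327 of 215622. Leaving out 1 library gave 210337 to 212771 peaks, 16009 to 16068 genes, a ratio of shares in peaks of 3.65 to 3.94, intergenic minus gene body log2 differences of 0.08 to 0.10, promoter minus gene body of -0.06 to -0.05 and wide minus narrow of 0.17 to 0.25. Deviations of same-numbered hMeDIP and input libraries correlated by 0.01, 0.02 and -0.03. Most pairs of replicates differed within peaks by little more than sampling noise, so this cannot show whether the numbers pair the samples. With replicate number as a further term in the fit, 212757 peaks and 16064 genes were higher. With hMeDIP replicates 1 and 3 summed, 212582 peaks were higher. Intergenic minus gene body (0.095) became 0.15 by medians, 0.17 under 500 bp, 0.027 at 5000 bp or more, 0.062 in the second set and -0.0069, reversed, in the first. Promoters, their 3 classes together, minus gene body (-0.056) became -0.027 by medians, -0.085 from 1000 to under 2000 bp, -0.21 at 5000 bp or more, 0.034, reversed, under 500 bp, -0.034 in the first set and -0.082 in the second. Wide minus narrow (0.21) became 0.30 in gene bodies, 0.072 in the first set and 0.60 in the second. The causes were not tested. The settings that scale by reads in peaks, TMM or DESeq2's own factors are left out of the next count. Under the other settings 39 values of named peaks and genes lost their call, all of them low peaks or Olr802. For Agap1 the adjusted p was 0.092 in DESeq2 on all counted reads. In edgeR it was 0.055 without the first hMeDIP library and 0.159 without the second input library.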

Other observations

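Olfactory receptor genes, which are silent outside the nose in most tissues, had a peak for 86 of 1201 RefSeq symbols (7.16%), against 58.3% of all protein-coding symbols. Those with a peak had a median span of 0.944 kb, with 40.5% of it in peaks, against 27.6 kb for protein-coding genes with a peak. The part of gene length in the 7.16% was not tested. Where a peak was present its enrichment was ordinary: the median log2 was 2.002, from 0.55 in Olr802 to 2.87 in Olr321. Of the 86, 84 were at least 2-fold above input, near the 95.6% over all genes tested. Of their peaks 76.2% came from the first set of the peak list, against 24.4% over all genes.

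Hox genes, which give cells their position along the body axis, differed by cluster. A peak was assigned to 7 of 10 Hoxb, 5 of 9 Hoxc, 3 of 9 Hoxd and 0 of 11 Hoxa symbols. Between the last peak of Skap2 and the first of Hibadh, the genes to either side of Hoxa, lay 643 kb with 38 peaks and 1 stretch of 323 kb with none. Of 213003 gaps between neighbouring autosomal peaks 0.170% were at least as long, and the median gap was 3.40 kb. Where the Hoxa genes lie on the peak list's build was not determined. Hoxb7 and Hoxb2 were the least enriched, with log2 values of 0.93 and 0.9995, and Hoxd11 the most, with 2.10.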
